A study of Mus musculus with 12 samples.

Results

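The cellular response to endoplasmic reticulum (ER) stress and to amino acid shortage was followed through 32 genes in C2C12 cells, an established mouse myoblast line that forms muscle fibres in culture when serum is lowered. The genes were a list chosen by function, with earlier results of these data known. It held transcription factors of the response, its effectors, enzymes of serine, one-carbon, asparagine and proline synthesis, amino acid carriers, and ER chaperones. All 32 were found by symbol among 55416 genes in the table of counts, of which 52083 carried a symbol, and all 32 passed the filter on low counts. The 12 RNA libraries fell into 4 groups, each with 3 biological replicates per the labels. Both wild-type (WT) C2C12 cells and C2C12 cells labelled Mapk14 knockout (KO) were grown to partial confluence and then held for 5 days. The growth medium (GM) contained 10% fetal bovine serum, and the differentiation medium (DM) contained 2% horse serum. Mapk14 encodes the stress-activated kinase p38alpha. The sources used here give neither the way the gene was edited nor the number of KO clones, so a difference between clones and a difference between genotypes cannot be told apart.

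Cells sense unfolded proteins in the ER through the membrane proteins PERK, IRE1 and ATF6. PERK, like the amino acid sensor GCN2, phosphorylates the translation factor eIF2alpha, which lowers general protein synthesis and favours translation of Atf4 mRNA, so that ATF4 protein can rise without more of its RNA. ATF4 then drives genes that make and import amino acids, together with the pro-apoptotic factor CHOP (the product of Ddit3), while IRE1, through splicing of Xbp1 RNA, and ATF6 drive chaperone genes. Myoblasts that fuse into fibres are known to pass through such a stress response and to build up an ER specialised for calcium storage. Counts per gene report neither phosphorylation, nor translation, nor Xbp1 splicing.

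Library totals ranged from 8821669 to 11536396 counts, 16039 to 16677 genes had at least 1 count, and mitochondrial transcripts took 2.79% to 3.91% of counts. Levels are given as CPM, counts scaled to a common library size by the trimmed mean of M values, always in the order of replicates 1, 2 and 3, and differences as log2 fold changes ± standard error (SE) from edgeR's quasi-likelihood test. A gene is said to have changed where its p, adjusted by the Benjamini-Hochberg method over 13250 tested genes, was below 0.05. The level of Mapk14 RNA could not check the KO label: it was at 130.1, 135 and 108 CPM in WT GM, 93.9, 91.2 and 88.7 in WT DM, 130.3, 136 and 137 in KO GM and 93.8, 90.02 and 84.5 in KO DM, and the KO to WT difference was 0.11 ± 0.08 (adjusted p = 0.350) in GM and -0.03 ± 0.08 (adjusted p = 0.822) in DM. KO therefore stands for the label alone throughout. The muscle markers Myod1, Myf5, Myog, Des, Cdh15, Vgll2 and Myh3 summed to 1371 to 1608 CPM in WT GM, 3752 to 3828 in WT DM, 263 to 335 in KO GM and 932 to 1069 in KO DM, and 7 of 7 were lower in KO than in WT in both media. These markers thus moved with both medium and label; their part in the results below was not tested, and in such bulk samples fewer cells of a type and less RNA per cell cannot be told apart. Of the markers searched, Ptprc and Adgre1 (leukocytes), Epcam (epithelium), Sox10 (Schwann cells) and Rbfox3 (neurons) had 0 counts in all 12 libraries. The summed endothelial markers reached at most 1.33 CPM. Other marker sums did move with label or medium. The epithelial sum, carried by Krt14, was 0.898 to 1.85 CPM in WT GM, 1.73 to 4.60 in WT DM, 2.34 to 4.43 in KO GM and 13.4 to 14.4 in KO DM. The neural and Schwann sum, carried by Tubb3, was 45.1 to 54.6 CPM in WT GM, 50.1 to 50.7 in WT DM, 14.5 to 18.5 in KO GM and 6.32 to 7.28 in KO DM. The macrophage sum lay between 11.2 and 20.9 CPM and was 16.2 to 20.9 in KO DM. The part of these genes in the results was not tested either.

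The replicate 3 library of each GM group stood apart from replicates 1 and 2 in these genes. In WT GM, replicate 3 held the highest level of 9 of 9 chaperone genes and replicate 1 the lowest of 9 of 9, so that the chaperones summed to 3768, 4210 and 5867 CPM. In KO GM, replicate 3 was highest for 8 of 9, with sums of 5174, 5100 and 6382 CPM. The carrier genes went the other way, with replicate 3 lowest for 3 of 3 in both GM groups, and the synthesis enzymes were lowest there for 5 of 8 in WT GM and 7 of 8 in KO GM. Counts over the 32 genes are therefore also given without both of these libraries. As the libraries were picked out by the levels of these same genes, values without either or both show dependence on them. Such values, with their adjusted p, are not separate support for a difference.

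Promoter sequences (RefSeq, mouse build GRCm38.p6, 250 bases before to 50 after a transcription start) were found for 28 of the 32 genes, in 31 windows; Atf6, Slc7a5, Manf and Hyou1 were not matched. They were searched on both strands for the core of the C/EBP-ATF response element that ATF4 binds (TGATGNAA, where N is any base) and for the ER stress response element that ATF6 binds together with NF-Y (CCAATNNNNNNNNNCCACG). The ATF4 core was found in 7 genes (Asns, Chac1, Nupr1, Pycr1, Slc7a11, Trib3 and Vldlr), against 3.97% of all 32851 windows. The ER stress element was found in 4 (Calr, Creld2, Hsp90b1 and Hspa5), against 0.119% of windows, and the third motif searched, TGACGTGG, the core of an element bound by XBP1, in 0 genes against 0.676% of windows. A match describes letters in a window and does not show that a factor was bound. The stretches below are shown as examples from genes whose levels are described below; the other genes with a match were not printed, and most of the 28 held neither the ATF4 core nor the ER stress element. Each runs 5′ to 3′ on the strand of the gene, with matches to the motif in capitals (a match that reads TTNCATCA or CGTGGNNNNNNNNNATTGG is the motif on the opposite strand).
Asns, at chr6:7693210-7693247 on the minus strand, had 1 ATF4 core.
Asns: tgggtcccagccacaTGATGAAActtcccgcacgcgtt
Slc7a11, at chr3:50443638-50443694 on the minus strand, had 2 ATF4 cores facing each other.
Slc7a11: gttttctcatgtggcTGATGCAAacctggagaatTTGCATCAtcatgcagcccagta
Pycr1, at chr11:120643829-120643866 on the minus strand, had 1 ATF4 core.
Pycr1: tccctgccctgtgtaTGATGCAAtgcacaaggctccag
Chac1, at chr2:119351034-119351071 on the plus strand, had 1 ATF4 core.
Chac1: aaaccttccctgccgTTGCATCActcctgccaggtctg
Vldlr, at chr19:27216805-27216842 on the plus strand, had 1 ATF4 core.
Vldlr: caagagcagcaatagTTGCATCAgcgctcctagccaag
Hspa5, at chr2:34772010-34772058 on the plus strand, had 1 ER stress element.
Hspa5: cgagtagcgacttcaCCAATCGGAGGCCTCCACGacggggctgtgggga
Calr, at chr8:84847060-84847108 on the minus strand, had 1 ER stress element.
Calr: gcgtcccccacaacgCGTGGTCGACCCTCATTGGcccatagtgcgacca
Hsp90b1, at chr10:86705518-86705671 on the minus strand, had 2 ER stress elements, on opposite strands.
Hsp90b1: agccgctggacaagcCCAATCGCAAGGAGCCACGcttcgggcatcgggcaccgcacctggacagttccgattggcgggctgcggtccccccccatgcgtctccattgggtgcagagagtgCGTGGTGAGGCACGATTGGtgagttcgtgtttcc

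The first comparison asked how the module differed between DM and GM in cells of each label. In WT cells 15 of the 32 genes fell, where 14.8% of all tested genes fell, and 5 rose, where 18.4% of all tested genes rose. In KO cells 15 fell, against 19.8% of all tested genes, and 1 rose, against 20.8%. The median log2 fold change of the 32 genes was -0.18 in WT and -0.14 in KO, beside -0.01 and 0.00 over all tested genes. Without both GM replicate 3 libraries 16 fell and 10 rose in WT, where 18.5% and 21.1% of all tested genes did, and 15 fell and 6 rose in KO, where 20.4% and 24.3% did. Of the fallers, 13 were shared (86.7% of each list of 15): Atf4, Atf5, Ddit3, Trib3, Chac1, Sesn2, Vldlr, Asns, Psph, Shmt2, Aldh18a1, Slc7a11 and Slc3a2. Slc7a5 rose in both. The level of each gene in each library, relative to the gene's mean, shows the shared fallers as pale or blue in most DM libraries and most chaperones as light red in WT DM and in the replicate 3 GM libraries.

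**Figure D1:**
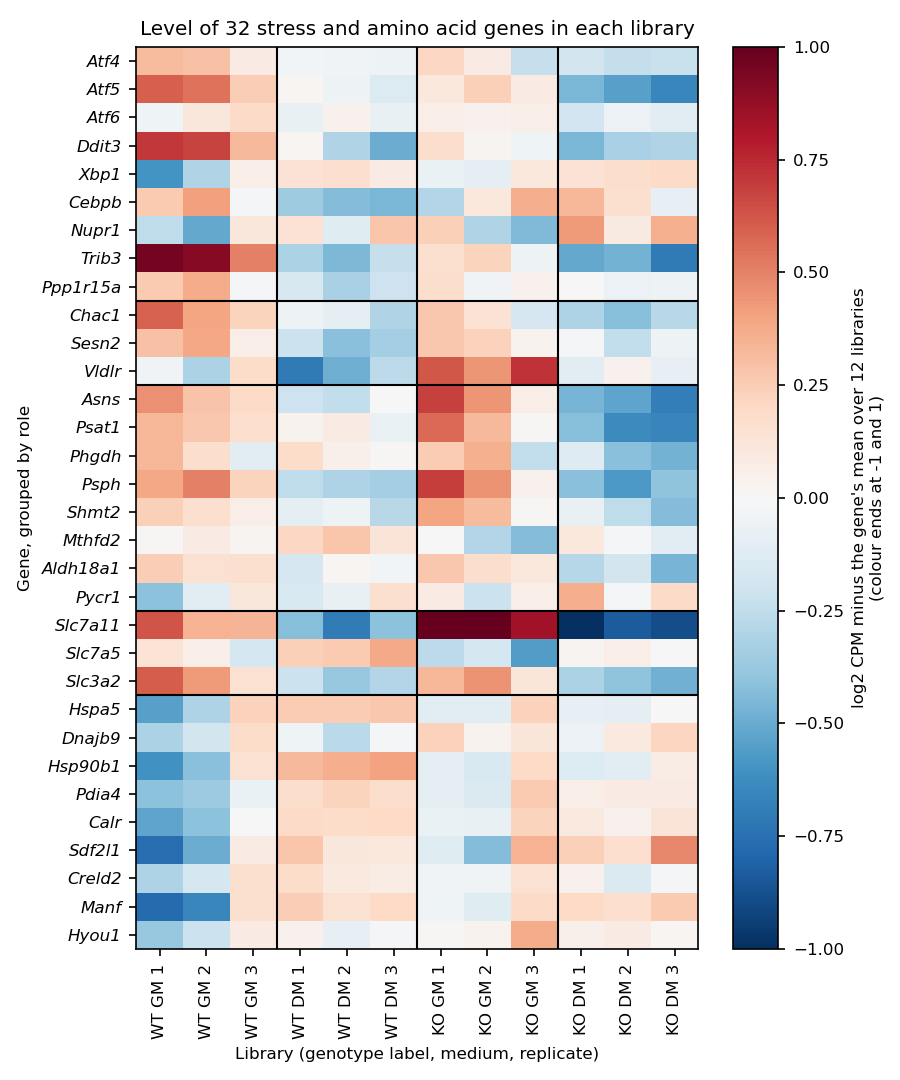
Level of the 32 genes (vertical axis, grouped by role) in each of the 12 libraries (horizontal axis), as log2 CPM minus the mean of the gene over all libraries. Colour ends at -1 and 1. The 9 chaperone genes at the bottom are highest within WT GM in replicate 3.

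Among the 9 transcription factors and their regulators, 6 fell (66.7%, against 14.8% of all tested genes) and 1 rose (11.1%, against 18.4%) in WT. In KO 4 fell (44.4%, against 19.8%) and 0 rose (against 20.8%), or 1 (Xbp1) without both GM replicate 3 libraries. Atf4, the central activator of the amino acid response, was at 332, 327 and 282 CPM in WT GM, 263, 259.9 and 258 in WT DM, 309, 282 and 228 in KO GM and 236, 226 and 229 in KO DM. All 3 WT DM libraries were below all 3 WT GM libraries, whereas KO GM replicate 3 lay among the KO DM libraries. Atf4 fell by 0.27 ± 0.09 (adjusted p = 0.0239) in WT and by 0.24 ± 0.09 (adjusted p = 0.0350) in KO. These 2 calls were not firm: the first ended without WT GM replicate 1, WT GM replicate 2, WT DM replicate 2 or WT DM replicate 3 (adjusted p 0.0552 to 0.092, and 6.76e-05 to 0.092 over all 20 alternatives), and the second under 10 of 20 alternatives (range 7.99e-05 to 0.241), among them without any of the KO libraries except KO GM replicate 3, and without WT GM replicate 1, WT DM replicate 2 or WT DM replicate 3.

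Atf5, a close relative of ATF4 whose translation is likewise favoured under stress, was at 312, 299.6 and 244 CPM in WT GM, 208, 199 and 187 in WT DM, 222, 243 and 217 in KO GM and 150.2, 141 and 131 in KO DM. No DM library reached any GM library of the same label. It fell by 0.53 ± 0.09 (adjusted p = 4.96e-05) in WT and by 0.69 ± 0.09 (adjusted p = 1.29e-06) in KO, and both calls held under all alternatives. Ddit3, which encodes the pro-apoptotic factor CHOP, was at 46.1, 45.1 and 35.4 CPM in WT GM, 28.7, 22.99 and 20.1 in WT DM, 31.9, 28.8 and 27.4 in KO GM and 20.6, 22.6 and 22.9 in KO DM. The WT GM libraries were the highest, and in each label every GM library exceeded every DM library. Ddit3 fell by 0.82 ± 0.13 (adjusted p = 2.06e-05) in WT and by 0.41 ± 0.13 (adjusted p = 0.0132) in KO, where the call ended without KO GM replicate 1 (adjusted p = 0.0666) or KO DM replicate 1 (0.0803; range over alternatives 0.00372 to 0.0803).

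Trib3, a pseudokinase that is a target of ATF4 and CHOP and restrains both, was at 29.4, 28.5 and 21.6 CPM in WT GM, 12.2, 11.1 and 12.97 in WT DM, 16.96, 17.7 and 14.6 in KO GM and 10.6, 10.9 and 9.29 in KO DM. In both labels each GM library exceeded each DM library. Its fall of 1.13 ± 0.14 (adjusted p = 1.47e-06) in WT was the steepest of the 32 genes there, and in KO it fell by 0.67 ± 0.15 (adjusted p = 7.01e-04). Ppp1r15a, which encodes GADD34, the subunit that directs a phosphatase to eIF2alpha, was at 43, 46.2 and 35.5 CPM in WT GM, 32.03, 28.5 and 31.03 in WT DM, 40.4, 34.9 and 36.9 in KO GM and 35.8, 34.3 and 34.5 in KO DM. WT GM lay above WT DM without overlap, and the KO groups overlapped. It fell by 0.45 ± 0.10 (adjusted p = 0.00180) in WT, while the KO value was -0.10 ± 0.10 (adjusted p = 0.466).

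Cebpb, a basic leucine zipper factor that can pair with ATF4 and also acts in adipocyte and macrophage programmes, was at 130.3, 145 and 108 CPM in WT GM, 85.1, 80.7 and 79.2 in WT DM, 88.9, 117 and 140.4 in KO GM and 137, 121 and 103 in KO DM. The WT DM libraries were the lowest of all, and KO GM spanned a range that contained all 3 KO DM libraries. Cebpb fell by 0.64 ± 0.17 (adjusted p = 0.0122) in WT, and the KO value was 0.06 ± 0.16 (adjusted p = 0.812). Xbp1, the factor activated by IRE1, was at 117, 144 and 185 CPM in WT GM, 196, 199 and 188 in WT DM, 169.5, 166 and 191 in KO GM and 196, 200.5 and 203 in KO DM. WT GM replicate 3 lay far above the other WT GM libraries and just under WT DM. Xbp1 rose by 0.38 ± 0.12 (adjusted p = 0.0184) in WT, with a value of 0.19 ± 0.12 (adjusted p = 0.220) in KO. The WT call ended without WT GM replicate 1 (adjusted p = 0.0797), WT GM replicate 2 (0.0714), WT DM replicate 1 (0.0593) or WT DM replicate 2 (0.0652) and with only the 6 WT libraries (0.0737; range 8.14e-08 to 0.0797), whereas Xbp1 was also called in KO without WT GM replicate 3 (0.0242). Atf6, the ER membrane sensor that is itself a transcription factor, was between 146 and 190.3 CPM in all libraries and did not pass the test in either label (-0.12 ± 0.07 and -0.18 ± 0.07). Nupr1, a small stress-induced chromatin protein, varied within groups, from 36.4 to 56.3 CPM in WT GM and from 38.2 to 61.2 CPM in KO GM, and its values were 0.30 ± 0.21 (adjusted p = 0.312) in WT and 0.44 ± 0.20 (adjusted p = 0.115) in KO. The KO rise was called by DESeq2 (adjusted p = 0.0233) and without KO GM replicate 1 (0.67, adjusted p = 0.00647).

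The 3 effectors fell in both labels, where 14.8% of all tested genes fell in WT and 19.8% in KO. Chac1, a glutathione-degrading enzyme induced by ATF4 whose promoter stretch is printed above, was at 39.2, 34.2 and 30.3 CPM in WT GM, 25.1, 24.3 and 21.1 in WT DM, 31.2, 28.8 and 23.1 in KO GM and 20.97, 19.3 and 21.5 in KO DM. Each DM library was below each GM library of its label. It fell by 0.56 ± 0.12 (adjusted p = 0.00118) in WT and by 0.42 ± 0.13 (adjusted p = 0.00937) in KO, where the call ended without KO GM replicate 1 (adjusted p = 0.0656) or KO DM replicate 2 (0.0616; range 0.000408 to 0.0656). Sesn2, a leucine sensor that restrains the growth kinase complex mTORC1, was at 41.3, 44.2 and 35.3 CPM in WT GM, 29.03, 25.2 and 26.6 in WT DM, 40.7, 39.5 and 34.5 in KO GM and 33.4, 28.4 and 32.5 in KO DM. The GM and DM libraries of each label did not overlap, though in KO the nearest were at 34.5 and 33.4 CPM. Sesn2 fell by 0.58 ± 0.11 (adjusted p = 2.17e-04) in WT and by 0.28 ± 0.11 (adjusted p = 0.0382) in KO, but the KO call ended under 10 of 20 alternatives, DESeq2 among them (0.0623), and without any 1 of the KO libraries except GM replicate 3, or without WT GM replicate 1 or WT DM replicate 3 (range 0.00962 to 0.237). Vldlr, the very low density lipoprotein receptor, also a stress-induced target of ATF4, was at 63.9, 52.5 and 74.5 CPM in WT GM, 40.1, 46.9 and 54.7 in WT DM, 101, 89.2 and 108 in KO GM and 60.7, 67.5 and 62.1 in KO DM. In WT the groups touched, since WT DM replicate 3 exceeded WT GM replicate 2, and in KO they did not. It fell by 0.43 ± 0.12 (adjusted p = 0.0116) in WT and by 0.65 ± 0.12 (adjusted p = 2.33e-04) in KO.

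**Figure D2:**
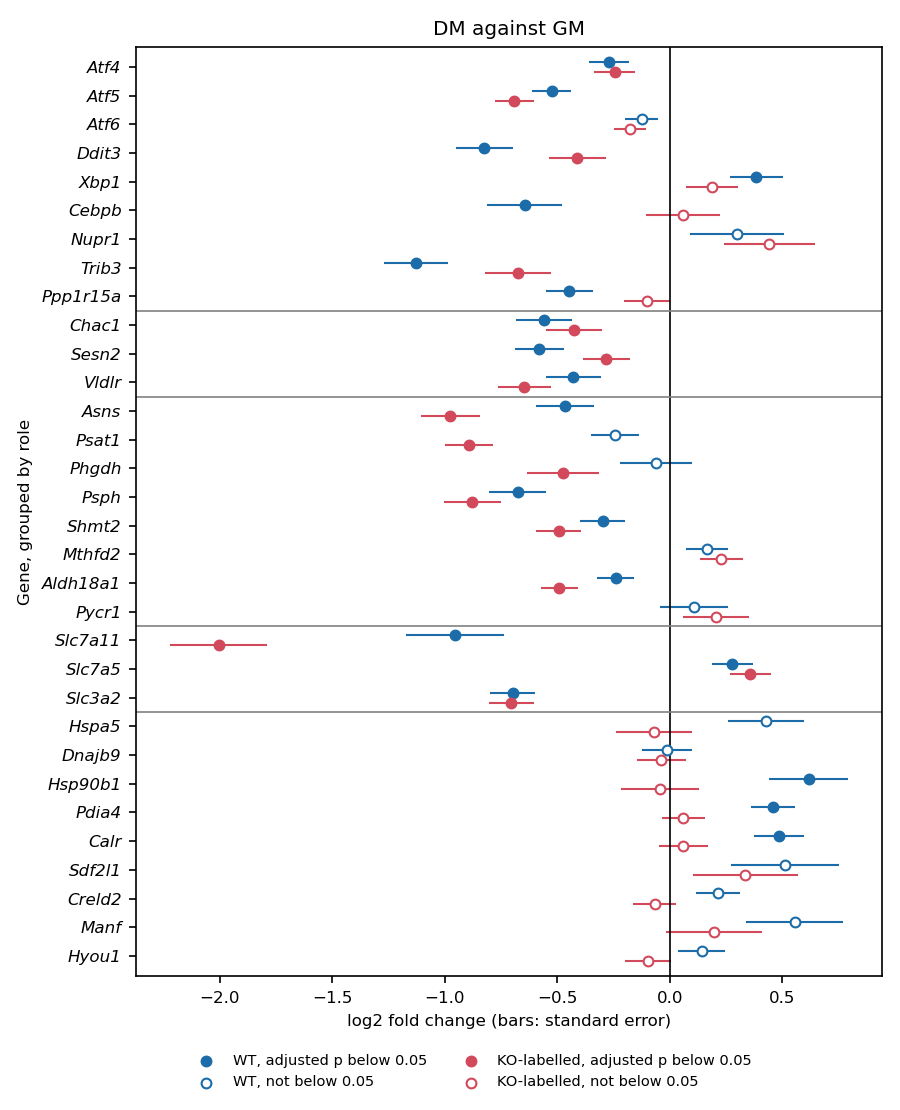
log2 fold change of each of the 32 genes in DM against GM (horizontal axis; bars are the SE), in WT cells (blue) and KO-labelled cells (red); filled points have an adjusted p below 0.05. Amino acid and effector genes lie mostly left of 0 in both labels, and 8 of the 9 chaperones, all but Dnajb9 (-0.01), lie right of 0 in WT, with Hsp90b1 at 0.62 in WT and -0.04 in KO.

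Of the 8 enzymes of amino acid and one-carbon synthesis, 4 fell in WT (50%, against 14.8% of all tested genes). In KO 6 fell (75%, against 19.8%), and 0 rose in either label, against 18.4% in WT and 20.8% in KO. Summed over the 8, the level was 789 to 901 CPM in WT GM, 710 to 748 in WT DM, 714 to 987 in KO GM and 531 to 634 in KO DM. Asns, asparagine synthetase, whose promoter holds the ATF4 core printed above, was at 108, 95.9 and 89.8 CPM in WT GM, 67.97, 66.1 and 78.6 in WT DM, 126, 107 and 82.2 in KO GM and 57.05, 54.4 and 48.8 in KO DM. Each DM library was below each GM library, and the KO DM libraries were the lowest of all. Asns fell by 0.47 ± 0.13 (adjusted p = 0.0115) in WT and by 0.98 ± 0.13 (adjusted p = 2.16e-05) in KO.

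The serine pathway runs from glycolysis through Phgdh, Psat1 and Psph, and Shmt2 then passes a carbon from serine to folate in mitochondria. Psat1, the aminotransferase of the second step, was at 261, 250.4 and 233 CPM in WT GM, 213, 219 and 198 in WT DM, 306, 259.8 and 209 in KO GM and 154, 133 and 131 in KO DM. The KO DM libraries stood clear below all other groups. Psat1 fell by 0.89 ± 0.11 (adjusted p = 1.96e-06) in KO, and its WT value was -0.24 ± 0.11 (adjusted p = 0.0855). Psat1 also fell in WT under 7 of 20 alternatives, such as without both GM replicate 3 libraries (-0.29, adjusted p = 0.00244). Phgdh, the first enzyme, was at 176, 158 and 130.0 CPM in WT GM, 159, 145 and 141 in WT DM, 167, 179 and 118 in KO GM and 128, 105 and 101 in KO DM. KO GM replicate 3 lay inside the KO DM range, and the WT groups overlapped. Phgdh fell by 0.48 ± 0.16 (adjusted p = 0.0367) in KO, with a WT value of -0.06 ± 0.16 (adjusted p = 0.814). The KO call ended under 8 of 20 alternatives (range 2.23e-07 to 0.127), namely with only the 6 KO libraries and without WT GM replicate 2, WT DM replicate 2 or 3, KO GM replicate 1 or 2, or KO DM replicate 2 or 3.

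Psph, the phosphatase that releases serine, was at 43.1, 46.6 and 38.3 CPM in WT GM, 27.5, 26.6 and 26.04 in WT DM, 53.1, 44.98 and 33.9 in KO GM and 24.6, 22.1 and 24.9 in KO DM. The media did not overlap in either label. It fell by 0.68 ± 0.13 (adjusted p = 2.63e-04) in WT and by 0.88 ± 0.13 (adjusted p = 9.59e-06) in KO; the gene overlaps Cct6a on the opposite strand, which had 52629 counts against 4141 for Psph, and reads of the pair could be told apart only if the counting used strand. Shmt2 was at 141, 135 and 125 CPM in WT GM, 112, 116 and 98.9 in WT DM, 157, 149 and 121 in KO GM and 114, 100.2 and 88.7 in KO DM. DM was below GM in each label, and it fell by 0.30 ± 0.10 (adjusted p = 0.0277) in WT and by 0.49 ± 0.10 (adjusted p = 5.16e-04) in KO, the WT call ending without WT GM replicate 1 (adjusted p = 0.0968), WT GM replicate 2 (0.0605) or WT DM replicate 3 (0.125; range 0.000829 to 0.125).

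Aldh18a1, the first committed enzyme of proline synthesis, was at 92.1, 86.1 and 86.8 CPM in WT GM, 69.1, 78.8 and 76.2 in WT DM, 93.7, 87.5 and 83.3 in KO GM and 63.6, 68.4 and 56.1 in KO DM. Again no DM library reached a GM library of its label. It fell by 0.24 ± 0.08 (adjusted p = 0.0292) in WT and by 0.49 ± 0.08 (adjusted p = 5.55e-05) in KO, and the WT call ended without WT GM replicate 1 (adjusted p = 0.0943), WT DM replicate 1 (0.102) or WT DM replicate 3 (0.0537; range 0.00952 to 0.102). Pycr1, which completes proline synthesis in mitochondria and carries an ATF4 core in its promoter, was between 12.3 and 21.2 CPM in all libraries, with values of 0.11 ± 0.15 (adjusted p = 0.628) in WT and 0.21 ± 0.15 (adjusted p = 0.285) in KO. Mthfd2, the mitochondrial folate enzyme that follows Shmt2, had values of the opposite sign to Shmt2: 0.17 ± 0.09 (adjusted p = 0.187) in WT and 0.23 ± 0.09 (adjusted p = 0.0576) in KO, and the KO rise passed the threshold under 10 of 20 alternatives (range 0.00339 to 0.246).

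The 3 amino acid carrier genes form 2 exchangers, and of these genes 2 fell and 1 rose in each label. Of all tested genes, 14.8% fell and 18.4% rose in WT, and 19.8% fell and 20.8% rose in KO. Slc3a2 encodes the heavy chain CD98, which both exchangers share; Slc7a11 (xCT) with CD98 imports cystine for glutathione synthesis, and Slc7a5 (LAT1) with CD98 imports leucine and other large neutral amino acids. Slc3a2 was at 303, 268 and 222 CPM in WT GM, 172, 153 and 163 in WT DM, 252, 272 and 217 in KO GM and 161, 152 and 143 in KO DM. Each GM library exceeded each DM library of its label, and it fell by 0.70 ± 0.10 (adjusted p = 1.66e-05) in WT and by 0.70 ± 0.10 (adjusted p = 1.15e-05) in KO. Slc7a11, whose promoter holds 2 ATF4 cores, was low, at 7.2, 5.91 and 5.89 CPM in WT GM, 3.46, 2.86 and 3.49 in WT DM, 11.1, 9.53 and 8.34 in KO GM and 2.03, 2.61 and 2.51 in KO DM. The KO GM libraries were the highest and the KO DM libraries the lowest of the 12. It fell by 0.95 ± 0.22 (adjusted p = 0.00159) in WT and by 2.00 ± 0.22 (adjusted p = 1.38e-07) in KO, the largest log2 fold change of the 32 genes in the 5 comparisons tested.

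Slc7a5 was at 112, 107 and 90.9 CPM in WT GM, 121, 122 and 133 in WT DM, 85.4, 90.7 and 69.4 in KO GM and 104, 107 and 103 in KO DM. The DM libraries were above the GM libraries of the same label, with no overlap. Slc7a5 rose by 0.28 ± 0.09 (adjusted p = 0.0225) in WT and by 0.36 ± 0.09 (adjusted p = 0.00340) in KO. The WT rise was not called without WT GM replicate 3 (0.19, adjusted p = 0.105), WT DM replicate 2 (0.051) or WT DM replicate 3 (0.115), nor with total counts as the only scaling (0.0578; range over alternatives 0.00709 to 0.115). The gene shares its locus with Gm20388, so that reads of the 2 genes may have been divided.

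Of the 9 ER chaperones and folding factors, 3 rose in WT by edgeR (Hsp90b1, Pdia4 and Calr), or 33.3%, against 18.4% of all tested genes. In KO 0 rose, against 20.8%, and 0 fell in either label, against 14.8% in WT and 19.8% in KO. DESeq2 also called 3 risers in WT and 0 in KO. At an unadjusted p below 0.05, 6 rose in WT by edgeR and 7 by DESeq2, and 0 passed in KO by either. The share of all tested genes at that unadjusted threshold was not counted. The median was 0.46 in WT and -0.04 in KO. The chaperones summed to 6340 to 6436 CPM in WT DM, above all 3 WT GM libraries, and to 5411 to 5787 CPM in KO DM, inside the KO GM range. These counts rested on WT GM replicate 3, which was set apart above by these same genes, so counts without it are not separate support. Without that library 8 of 9 rose in WT, where 19.6% of all tested genes rose, and the median was 0.66; without both GM replicate 3 libraries 8 of 9 rose in WT and 4 of 9 in KO, where 21.1% and 24.3% of all tested genes rose. Dnajb9 was the remaining gene in WT.

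Hsp90b1 (GRP94), a chaperone for secreted and membrane proteins, was at 708, 806 and 1201 CPM in WT GM, 1351, 1389.9 and 1422 in WT DM, 1010.4, 970.2 and 1236 in KO GM and 983, 1004 and 1133 in KO DM. All WT DM libraries exceeded all WT GM libraries, of which replicate 3 came nearest. It rose by 0.62 ± 0.18 (adjusted p = 0.0219) in WT, with a KO value of -0.04 ± 0.17 (adjusted p = 0.874). The WT call ended under 6 of 20 alternatives, namely without WT GM replicate 2 or any 1 WT DM library (adjusted p 0.0506 to 0.0822), with no filter on low counts (0.0511) and with the 6 WT libraries alone (0.0737; range 6.06e-13 to 0.0822). Without WT GM replicate 3 the value was 0.87 (adjusted p = 1.07e-07). Calr, calreticulin, a calcium-binding chaperone for glycoproteins, was at 1424, 1539.6 and 2053 CPM in WT GM, 2339.8, 2331 and 2353 in WT DM, 1952, 1941 and 2385 in KO GM and 2192, 2114 and 2242 in KO DM. WT DM was again above WT GM throughout, and Calr rose by 0.49 ± 0.11 (adjusted p = 0.00270) in WT with 0.06 ± 0.11 (adjusted p = 0.704) in KO. Pdia4, a protein disulfide isomerase, was at 157, 162 and 199 CPM in WT GM, 234, 243 and 235 in WT DM, 194, 188 and 249 in KO GM and 218, 220.5 and 220.0 in KO DM. It rose by 0.46 ± 0.10 (adjusted p = 9.23e-04) in WT, with 0.06 ± 0.10 (adjusted p = 0.660) in KO.

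Hspa5 (BiP), the main ER chaperone and the regulator of all 3 stress sensors, was at 941, 1106 and 1602 CPM in WT GM, 1629, 1628 and 1646 in WT DM, 1269, 1273 and 1605 in KO GM and 1292, 1281 and 1374 in KO DM. WT GM replicate 3 was just under the WT DM libraries and far above replicates 1 and 2. Its WT value was 0.43 ± 0.17 (adjusted p = 0.0813) and became 0.67 (adjusted p = 2.87e-06) without WT GM replicate 3, while the KO value was -0.07 ± 0.17 (adjusted p = 0.776). Manf, a secreted factor that is retained in the ER by BiP, was at 112, 121 and 213 CPM in WT GM and 226, 211 and 218 in WT DM, so that WT GM replicate 3 lay inside the WT DM range. Its WT value was 0.56 ± 0.22 (adjusted p = 0.0810) and became 0.90 (adjusted p = 4.93e-09) without WT GM replicate 3. In that fit Manf was also called in KO (0.22, adjusted p = 0.0193). Sdf2l1, which assists BiP, was at 27.9, 33.4 and 49.9 CPM in WT GM and 57.3, 51.1 and 50.7 in WT DM (0.51 ± 0.24 (adjusted p = 0.138), and 0.79 with adjusted p = 0.0156 without WT GM replicate 3). Creld2 and Hyou1, a disulfide isomerase-like protein and a large chaperone of the HSP70 family, were not called with all libraries and were called in WT without WT GM replicate 3 or without both GM replicate 3 libraries (0.36, adjusted p = 0.00193, and 0.27, adjusted p = 0.0208, without the first). With a replicate block, which kept all libraries, Hspa5, Manf and Sdf2l1 were called in WT (adjusted p = 0.0150, 0.0325 and 0.0181). Dnajb9, a co-chaperone of BiP that is a known XBP1 target, was between 51.1 and 74.7 CPM in all libraries, with values of -0.01 ± 0.11 in WT and -0.04 ± 0.11 in KO.

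**Figure D3:**
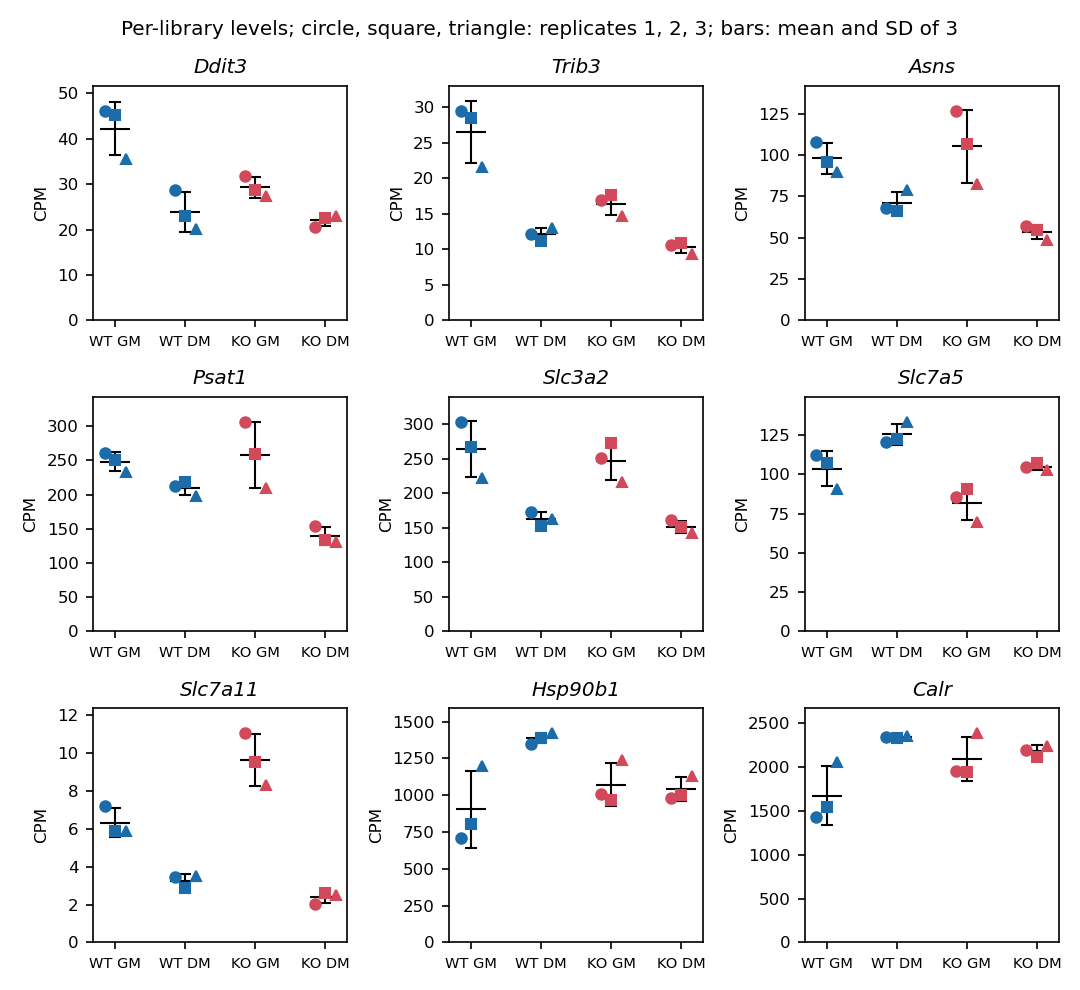
CPM (vertical axis, starting at 0) of 9 genes in the 4 groups (horizontal axis), with replicates 1, 2 and 3 as circle, square and triangle and bars for the mean and SD of 3. Trib3 is highest in WT GM, Slc7a5 is higher in DM within each label, and the triangle of WT GM lies far above its circle and square for Hsp90b1 and Calr.

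The second comparison asked how cells of the 2 labels differed within a medium. Fewer of the 32 genes were called than between media. In GM, 5 of 32 genes were higher in KO, against 10.0% of all tested genes, and 5 were lower, against 10.6%. In DM, 2 were higher, against 13.6%, and 5 were lower, against 17.4%, both near or under the background. Medians were 0.05 in GM and -0.11 in DM, beside 0.00 and -0.02 over all tested genes. Without both GM replicate 3 libraries 10 were higher and 5 lower in GM, against 11.9% and 13% of all tested genes, and 3 were higher and 9 lower in DM, against 17.8% and 19.6%. Vldlr was higher in KO in both media and Atf5 and Slc7a5 were lower in both; these were 20.0% and 50.0% of the higher genes and 40.0% of the lower genes in GM and DM. The muscle markers given above were lower in KO in both media, and how far they bear on these differences was not tested.

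Among the transcription factors, Atf5 was lower in KO by 0.33 ± 0.09 (adjusted p = 0.00787) in GM and by 0.49 ± 0.09 (adjusted p = 1.37e-04) in DM, with no overlap of libraries in either medium, and both calls held under all alternatives. Ddit3 was lower in KO GM by 0.53 ± 0.12 (adjusted p = 0.00327), each KO GM library being under each WT GM library, whereas the value in DM was -0.11 ± 0.13 (adjusted p = 0.567). Trib3 was lower in KO GM by 0.69 ± 0.14 (adjusted p = 6.78e-04) and had a value of -0.24 ± 0.15 (adjusted p = 0.258) in DM. Atf4 itself was at -0.20 ± 0.09 (adjusted p = 0.121) in GM and -0.18 ± 0.09 (adjusted p = 0.151) in DM; the GM value passed when WT GM replicate 3 (-0.28, adjusted p = 0.0239) or KO GM replicate 1 (-0.30, adjusted p = 0.0232) was left out. Cebpb was higher in KO DM by 0.56 ± 0.17 (adjusted p = 0.0259), with all KO DM libraries above all WT DM libraries, and its value in GM was -0.14 ± 0.16 (adjusted p = 0.611). The Cebpb call in DM ended under 6 of 20 alternatives (range 1.63e-06 to 0.0755), among them without any 1 of WT DM replicates 1, 2 and 3 or KO DM replicates 1 and 2 (0.0539 to 0.0755). Atf6, Xbp1, Nupr1 and Ppp1r15a did not pass in either medium, with values from -0.15 to 0.23, though Xbp1 was called in GM without WT GM replicate 3 (0.42, adjusted p = 0.000646). Of the 9, 4 were lower in KO GM, Cebpb among them, and 1 (Xbp1) was higher once both GM replicate 3 libraries were left out. These counts stand beside the shares of all tested genes given above for that fit.

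Vldlr was the effector that differed: its KO libraries were above its WT libraries without overlap in both media, by 0.64 ± 0.12 (adjusted p = 6.53e-04) in GM and by 0.42 ± 0.12 (adjusted p = 0.0133) in DM, the latter ending without WT DM replicate 1 (adjusted p = 0.0557; range 1.10e-05 to 0.0557). Chac1 was at -0.32 ± 0.12 (adjusted p = 0.0628) in GM and Sesn2 at -0.08 ± 0.10 (adjusted p = 0.675) (-0.19 ± 0.13 (adjusted p = 0.287) and 0.22 ± 0.11 (adjusted p = 0.135) in DM), so neither passed the test in either medium with all libraries. Chac1 was called lower in KO GM under 5 of 20 alternatives, among them without WT GM replicate 3 (adjusted p = 0.0178) and without KO GM replicate 1 (0.0321).

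In DM 3 of the 8 synthesis enzymes (37.5%, against 17.4% of all tested genes) were lower in KO, and in GM 1 was (12.5%, against 10.6%). Psat1 was lower by 0.59 ± 0.11 (adjusted p = 2.88e-04), with every KO DM library below every WT DM library, Asns by 0.41 ± 0.13 (adjusted p = 0.0283) and Aldh18a1 by 0.25 ± 0.08 (adjusted p = 0.0252). The Psat1 call held under all alternatives. That of Asns ended without WT DM replicate 1 or 3 or any 1 of the KO DM libraries (adjusted p 0.0505 to 0.127; range 0.000148 to 0.127), and that of Aldh18a1 with total counts alone (0.0596) or without WT DM replicate 2 or 3 or KO DM replicate 1 or 3 (0.0741 to 0.184; range 0.0149 to 0.184). Phgdh was not called in DM (-0.41 ± 0.16 (adjusted p = 0.0779)) but was under 7 of 20 alternatives, including DESeq2 (adjusted p = 0.0132). In GM the enzyme that was lower was Mthfd2, at 67.3, 70.6 and 67.9 CPM in WT GM and 66.8, 54.5 and 49.4 in KO GM. It was lower by 0.27 ± 0.09 (adjusted p = 0.0444), a call lost under 8 of 20 alternatives (range 0.00302 to 0.181), namely DESeq2 (0.0564), the 6 GM libraries alone (0.104), both GM replicate 3 libraries left out (0.147), or 1 library left out, which was WT GM replicate 1 or 2, KO GM replicate 2 or 3, or KO DM replicate 2. The other 7 enzymes were not called in GM.

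Slc7a5 was lower in KO in both media, by 0.34 ± 0.09 (adjusted p = 0.0104) in GM and by 0.26 ± 0.09 (adjusted p = 0.0343) in DM, with no overlap between labels in either. Leaving out WT GM replicate 1 (adjusted p = 0.0547) or KO GM replicate 3 (0.0582), or fitting the 6 GM libraries alone (0.0534), ended the GM call (range 0.000787 to 0.0582). The DM call ended under 8 of 20 alternatives (range 0.00296 to 0.178), namely with total counts alone and without WT GM replicate 2 or any 1 of the 6 DM libraries. Slc7a11 was higher in KO GM by 0.60 ± 0.19 (adjusted p = 0.0293) and had a value of -0.45 ± 0.24 (adjusted p = 0.177) in DM. The GM call ended without WT GM replicate 2 or 3, without KO GM replicate 1 or 2, without both GM replicate 3 libraries, and with the 6 GM libraries alone (adjusted p 0.0535 to 0.133; range 0.024 to 0.133). Their shared chain Slc3a2 was not called in either medium (-0.10 ± 0.10 and -0.10 ± 0.10).

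The chaperone counts in GM depended on the replicate 3 libraries. With all libraries, 3 of 9 were higher in KO GM (33.3%, against 10.0% of all tested genes). They were Calr by 0.32 ± 0.11 (adjusted p = 0.0480), Pdia4 by 0.29 ± 0.10 (adjusted p = 0.0426) and Hyou1 by 0.31 ± 0.10 (adjusted p = 0.0400). In each of the 3, WT GM replicate 3 lay above the lowest KO GM libraries. Without KO GM replicate 3, 0 of 9 were called, beside 9.49% of all tested genes that were higher, and without WT GM replicate 3, 8 of 9 were, beside 10.9%. The 3 calls also ended under 13, 11 and 10 of 20 alternatives (highest adjusted p 0.195, 0.275 and 0.206), in all 3 genes on leaving out WT GM replicate 1 or 2, KO GM replicate 3 or any 1 of the 6 DM libraries, and for Calr without KO GM replicate 1. Leaving out KO GM replicate 3 moved the 3 values to 0.21, 0.14 and 0.18 and leaving out WT GM replicate 1 to 0.21, 0.21 and 0.20, whereas they stayed at 0.32, 0.28 and 0.30 without any 1 DM library. Without both GM replicate 3 libraries 8 of 9 were higher in KO GM, against 11.9% of all tested genes, with a median of 0.34. In DM 0 of 9 passed by edgeR with all libraries, where 13.6% of all tested genes were higher and 17.4% lower in KO. By DESeq2 0 passed too, and 1 of 9 had an unadjusted p below 0.05. Yet Hspa5 (-0.31 ± 0.17) and Hsp90b1 (-0.42 ± 0.17) had every KO DM library below every WT DM library. With the 6 DM libraries alone these 2 genes were lower in KO with adjusted p = 9.51e-05 and 4.06e-06.

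**Figure D4:**
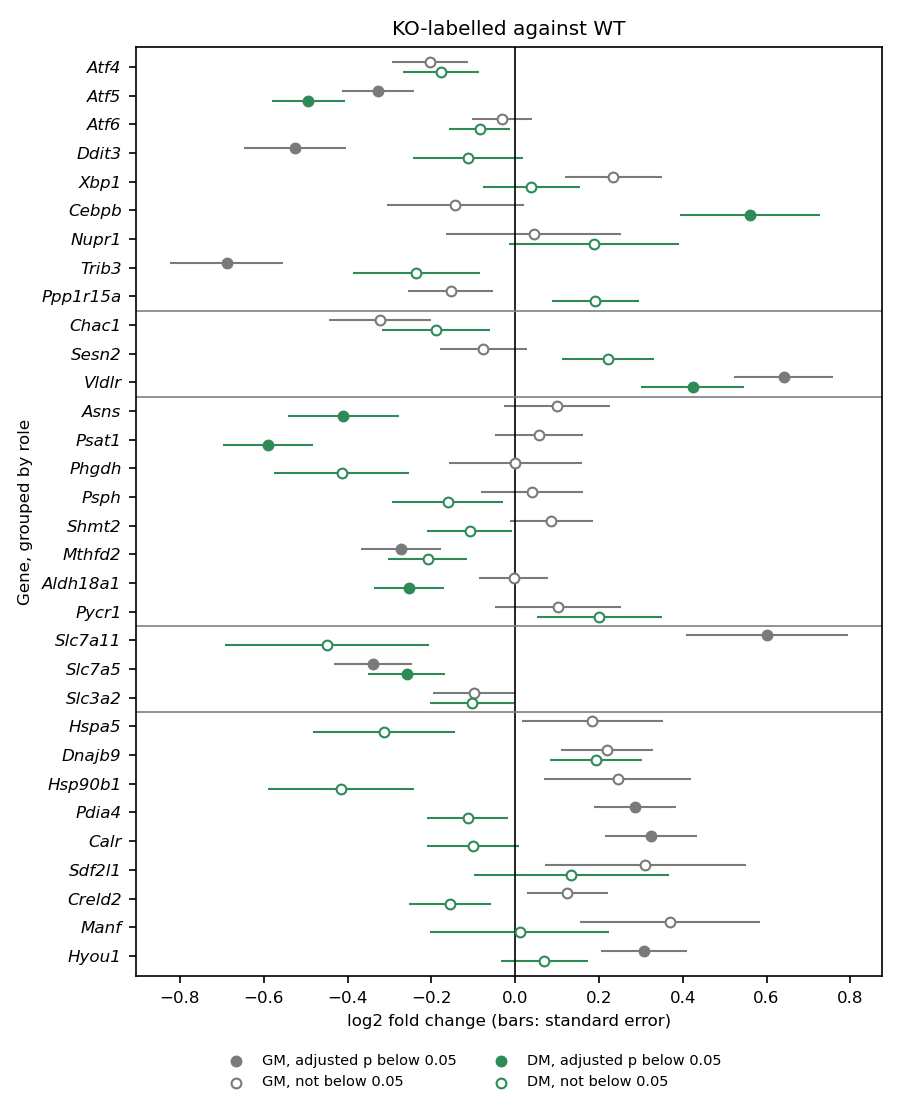
log2 fold change of each of the 32 genes in KO-labelled against WT cells (horizontal axis; bars are the SE), in GM (grey) and DM (green); filled points have an adjusted p below 0.05. Vldlr lies right of 0 and Atf5 and Slc7a5 left of 0 in both media, and Asns, Psat1 and Phgdh lie near 0 in GM and left of 0 in DM.

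The third comparison tested whether the response to DM differed between the labels, as the DM to GM change in KO minus that in WT. A response is called lower in KO where this difference was below 0, which covers a steeper fall as well as a weaker rise. It is called higher where the difference was above 0. Of the 32 genes, 2 had a lower response in KO, against 5.25% of all tested genes, and 0 a higher one, against 3.61%; the median was -0.19, beside -0.01 over all tested genes. With both GM replicate 3 libraries left out, 11 had a lower and 3 a higher response in KO, against 9.94% and 10.2%. At an unadjusted p below 0.05 by edgeR there were 7 lower and 4 higher, a threshold at which the share of all tested genes was not counted. DESeq2 called 2 lower and 1 higher, given here without such a share. Neither pair of counts can thus be read against all tested genes. Psat1 had a difference of -0.65 ± 0.15 (adjusted p = 0.0111), with its fall in KO of -0.89 ± 0.11 against -0.24 ± 0.11 in WT, and this call held under all alternatives. Slc7a11 had a difference of -1.05 ± 0.31 (adjusted p = 0.0370), but this ended under 12 of 19 alternatives, including without any 1 library of the KO DM or WT DM groups (range 0.0236 to 0.111), as well as without WT GM replicate 2 or 3 or KO GM replicate 1 or 2.

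Other differences in response did not pass with all libraries. Cebpb had 0.70 ± 0.23 (adjusted p = 0.0934) and was called by DESeq2 (adjusted p = 0.00725) and without KO GM replicate 3 (0.011). Asns had -0.51 ± 0.18 (adjusted p = 0.0996) and was called without KO GM replicate 3 (0.00252). The chaperones Hsp90b1 (-0.66 ± 0.25 (adjusted p = 0.140)), Hspa5 (-0.50 ± 0.24 (adjusted p = 0.246)) and Calr (-0.42 ± 0.16 (adjusted p = 0.104)) were all called without WT GM replicate 3 (adjusted p = 5.86e-05, 0.000378 and 0.000862), where 6 of 9 chaperones had a lower response in KO against 6.81% of all tested genes. The same 6 of 9 were called without both GM replicate 3 libraries, against 9.94% of all tested genes. With all libraries 0 of 9 were called and 3 of 9 had an unadjusted p below 0.05, all with a lower response in KO. The share of all tested genes at that unadjusted threshold was not counted. Pdia4 and Calr were also called with no filter on low counts (adjusted p = 0.0218 and 0.00323). Atf4 differed by 0.03 ± 0.13 and Slc3a2 by -0.01 ± 0.14.

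The other genes of these pathways came from 96 tested genes, likewise listed by function with earlier results known. They are given as counts beside the share of all tested genes: 18.4% rose and 14.8% fell in WT, and 20.8% and 19.8% in KO. Of 20 cytosolic aminoacyl-tRNA synthetases, many of them ATF4 targets, 8 fell (40%) and 0 rose in WT, and 17 fell (85%) and 0 rose in KO, with medians of -0.16 and -0.27. Cars fell by 0.31 ± 0.09 in WT and 0.51 ± 0.09 in KO, Tars by 0.34 ± 0.09 in WT and Rars by 0.53 ± 0.08 in KO. In DM 9 of the 20 (45%, against 17.4% of all tested genes) were lower in KO than in WT, among them Yars (-0.53 ± 0.09), and in GM 1 was higher (Rars, 0.31 ± 0.08) and 1 lower (Aars, -0.32 ± 0.09). Of 12 further enzymes of one-carbon, proline and glutamine metabolism, 6 fell (50%) and 1 rose in WT and 7 fell (58.3%) and 2 rose in KO. Aldh1l2, a mitochondrial folate enzyme known as an ATF4 target, fell by 0.74 ± 0.09 in WT and 1.21 ± 0.10 in KO, and Glul, glutamine synthetase, rose by 0.67 ± 0.09 and 0.57 ± 0.09.

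Of 12 other genes of the ATF4 pathway, 3 rose and 3 fell in WT (25% each), and 3 rose (25%) and 5 fell (41.7%) in KO. Ddit4, an inhibitor of mTORC1, fell by 0.66 ± 0.10 in WT and was lower in KO than WT in GM by 0.75 ± 0.10. The hormone gene Fgf21, also an ATF4 target, went the other way. It was at 1.75, 2.901 and 2.395 CPM in WT GM and 12.8, 12.3 and 14.5 in WT DM, and rose by 2.49 ± 0.32 (adjusted p = 5.57e-06) in WT. In KO GM it was at 0.322, 0.433 and 1.86 CPM and in KO DM at 10.1, 7.097 and 5.94, with means of 0.87 and 7.72. KO GM replicates 1 and 2 lay near the floor of 3 counts (0.319 and 0.260 CPM). Gdf15, another secreted target, fell by 0.86 ± 0.25 in KO. Of 11 other amino acid carriers tested, 2 rose (18.2%) and 4 fell (36.4%) in WT and 4 rose (36.4%) and 3 fell (27.3%) in KO. Slc7a2, a carrier of cationic amino acids, rose by 0.80 ± 0.21 and 1.15 ± 0.21, in the direction of Slc7a5 and against Slc3a2. Slc1a5, the glutamine carrier whose substrate LAT1 can exchange, fell by 0.85 ± 0.18 in KO.

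Of 24 further ER folding and quality control genes tested, 8 rose (33.3%) and 1 fell in WT and 6 rose (25%) and 2 fell in KO, the latter share of risers being near the 20.8% of all tested genes. With both GM replicate 3 libraries left out, 15 rose in WT and 14 in KO, against 21.1% and 24.3% of all tested genes. Pdia3 rose by 0.46 ± 0.12 in WT, and Herpud1 and Edem1, of the degradation pathway, rose by 0.80 ± 0.07 and 0.63 ± 0.14 in KO. None of the 9 chaperones was called in KO with all libraries. Without both GM replicate 3 libraries 4 of them rose there: Pdia4 (0.22), Calr (0.19), Sdf2l1 (0.60) and Manf (0.32). Ero1l, an oxidase that supplies disulfide bonds and is also induced by low oxygen, fell by 0.60 ± 0.09 in WT and 1.62 ± 0.09 in KO. P4hb, a disulfide isomerase and collagen hydroxylase subunit, was higher in KO by 0.62 ± 0.09 in GM and 0.56 ± 0.09 in DM. Of 8 targets of the oxidative stress factor NRF2, a list that includes Slc7a11, 6 fell in WT (75%) and 7 in KO (87.5%), and 4 were higher in KO in GM (50%, against 10.0% of all tested genes; 3 without both GM replicate 3 libraries). Nqo1 fell by 1.43 ± 0.12 and 1.36 ± 0.11, and Hmox1 was higher in KO by 1.70 ± 0.15 in GM and 1.15 ± 0.15 in DM.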

How the data were processed

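The values are unnormalized gene counts as the authors deposited them, in a single table of 12 libraries; 4 unnamed columns of it were empty and were not used. The submitters' processing notes name GRCm39 with the tools DESeq2 1.40.2, R 4.3.1, RSEM 1.3.3 and STAR 2.7.1a. The sources used here state no role of each tool, no annotation release and no strand setting. Total RNA was extracted per the labels' protocols, which name a single batch for all libraries.

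Counts were tested with edgeR 4.0.16 (R 4.3.3, limma 3.58.1; quasi-likelihood, robust, TMM scaling, filterByExpr) on the 4 group means over all 12 libraries, with 5 contrasts and Benjamini-Hochberg adjustment over 13250 genes holding 99.9% of counts. Scaling alternatives moved the median of all genes by at most 0.065. Depth sets a floor of 0.26 to 0.34 CPM (3 counts). Alternatives were other scalings and filters, DESeq2 1.42.0, a replicate block and leaving out libraries. Same-numbered replicates correlated at -0.085 to 0.186 in their deviations from group means, so the numbers were not used as pairs. The value of 0.186 was that of replicate 3 in WT GM and KO GM. P-values set a difference against the spread between these libraries, estimated over all 4 groups and moderated across genes. The spread of the GM libraries thus also entered tests between the DM groups. Members and gene lists were chosen with earlier results of these data known. Named were all 32 members, Mapk14 and, of each wider list and contrast, up to 2 rises and 2 falls, the higher group having a mean of 10 CPM or more. Promoters came from RefSeq tables of GRCm38.p6, so positions are given in that build only. In GENCODE M21, Atf5, Ddit3, Cebpb, Psph, Slc7a5 and Manf overlap other genes with 5000 or more counts (Nup62, Mars, Tmem189, Cct6a, Gm20388, and Dcaf1 and Rbm15b), so their counts are uncertain without a known strand setting.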

Additional observations from a re-analysis of the deposited data

Results flagged for a closer look

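Responses to DM that differed between the labels are collected here, as the log2 change in KO minus that in WT, each tested by edgeR's interaction contrast with adjustment over all tested genes. Among the 32 genes these were Psat1 (-0.65 ± 0.15 (adjusted p = 0.0111)) and Slc7a11 (-1.05 ± 0.31 (adjusted p = 0.0370)). Of 96 wider genes tested, 9 had a lower response in KO (9.38%) and 5 a higher one (5.21%), against 5.25% and 3.61% of all tested genes. A lower response again means a difference below 0, which can be a steeper fall in KO. Ero1l, for example, fell by 0.60 ± 0.09 in WT and by 1.62 ± 0.09 in KO. Only those wider genes that met the rule for naming genes are given. Among them the synthesis and folding genes Mthfd1l (-0.58 ± 0.11 (adjusted p = 0.00284)), Shmt1 (-0.95 ± 0.26 (adjusted p = 0.0282)) and Ero1l (-1.01 ± 0.13 (adjusted p = 2.33e-05)) had a lower response in KO. So did Stc2, a secreted glycoprotein of the ATF4 pathway (-1.03 ± 0.22 (adjusted p = 0.00475)), the tRNA synthetase genes Rars (-0.41 ± 0.12 (adjusted p = 0.0288)) and Yars (-0.42 ± 0.12 (adjusted p = 0.0347)), and Eif2s1, which encodes eIF2alpha (-0.42 ± 0.12 (adjusted p = 0.0238)). A higher response in KO was found for Slc1a4, a carrier of alanine, serine and cysteine (0.62 ± 0.13 (adjusted p = 0.00340)), Jdp2 (0.52 ± 0.12 (adjusted p = 0.00974)), Herpud1 (0.42 ± 0.10 (adjusted p = 0.0121)), the eIF2alpha phosphatase subunit Ppp1r15b (0.35 ± 0.09 (adjusted p = 0.0238)) and the protease gene Mbtps1 (0.29 ± 0.09 (adjusted p = 0.0479)). For Slc1a4 the 2 labels moved in opposite directions, with -0.35 ± 0.09 in WT and 0.27 ± 0.09 in KO.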

How the results depend on the processing

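Of 3168 values of the 32 genes under alternatives, 2904 kept their side of the threshold, 145 lost and 119 gained the call. Direction was compared only where a gene was called in either fit, and 0 of those values reversed. Of 55 called differences 32 were kept under every alternative. Leaving out each library in turn gave, for genes that rose, 2 to 9 in WT DM, 1 to 4 in KO DM, 1 to 10 for KO against WT in GM, 0 to 2 in DM and 0 to 3 for the difference in response. For genes that fell it gave 12 to 16, 10 to 15, 3 to 7, 2 to 7 and 1 to 8. With all libraries 18.4%, 20.8%, 10.0%, 13.6% and 3.61% of all tested genes were higher in these comparisons, and 14.8%, 19.8%, 10.6%, 17.4% and 5.25% lower. These shares also moved between fits, so the counts here do not by themselves describe the module. Without both GM replicate 3 libraries, 10 rose in WT DM, 6 in KO DM and 10 in KO GM against WT GM, 9 fell in KO DM against WT DM, and 3 and 11 were called higher and lower in the difference in response. A fit of only the 6 libraries compared gave 3 risers in WT DM, 2 in KO DM, 1 riser and 3 fallers in KO GM against WT GM and 9 fallers in KO DM against WT DM. With total counts alone there were 2 risers in KO DM, 3 in KO GM against WT GM, 3 fallers in KO DM against WT DM and 1 lower response. Risers in KO DM were 2 with median-of-ratios factors, DESeq2, no filter or the stricter filter, and DESeq2 or no filter gave 1 higher response and no filter 5 lower. A replicate block gave 8 risers in WT DM, 3 in KO DM, 1 riser in KO DM against WT DM and 7 lower responses. For the fits with other scalings, filters, DESeq2, a block or only the 6 libraries compared, shares of all tested genes are not given here. Their counts therefore cannot be read against all tested genes. The labels do not say what libraries of the same number share, though both GM replicate 3 libraries stood apart alike in chaperones and carriers. Fewer libraries were tested in some fits; otherwise the cause was not tested.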

Other observations

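The sensors upstream of the module were described separately from it. Of 10 genes for stress sensors and eIF2alpha phosphorylation, 4 fell and 0 rose in WT DM (at an unadjusted p below 0.05 also 4 and 0 by edgeR, and 4 and 0 by DESeq2), and 4 fell and 1 rose in KO DM, against 14.8% and 19.8% of all tested genes that fell in WT and KO. Eif2ak4, which encodes the amino acid sensor GCN2, was at 38.9, 35.9 and 40.3 CPM in WT GM, 26.04, 27.9 and 28.2 in WT DM, 36.2, 27.5 and 35.6 in KO GM and 24.6, 28.5 and 26.2 in KO DM and fell by 0.49 ± 0.11 (adjusted p = 0.00142) in WT. Ern1, which encodes the sensor IRE1, was at 55.1, 56.3 and 40.1 CPM in WT GM, 37.8, 42.1 and 35.8 in WT DM, 70.9, 76.1 and 67.1 in KO GM and 51.1, 59.6 and 51.6 in KO DM. It fell by 0.39 ± 0.11 in WT and 0.40 ± 0.11 in KO, and was higher in KO by 0.50 ± 0.11 (adjusted p = 0.00190) in GM and 0.49 ± 0.11 (adjusted p = 0.00195) in DM. Atf6b, a relative of Atf6, was higher in KO DM by 0.54 ± 0.10 (adjusted p = 2.60e-04), while Atf6 was not called. Eif2s1 was at 131, 136 and 147 CPM in WT GM, 139, 139 and 142 in WT DM, 166, 147 and 128 in KO GM and 108, 114 and 112 in KO DM, lower in KO DM than in all other groups, and fell by 0.40 ± 0.08 (adjusted p = 3.99e-04) there. Mbtps1, the protease that cuts ATF6 in the Golgi, rose by 0.34 ± 0.06 (adjusted p = 1.59e-04) in KO.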
